A study of Mus musculus with 16 samples.

Results

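Glutathione S-transferases were examined in quadriceps muscle of mice with and without Klf15. The list holds 10 genes, Gstm1, Gstm2, Gstm3, Gstm5, Gstm7, Gstt1, Gstt3, Gsta4, Gstk1 and Gstp1, and their members were found by matching the RefSeq accession of each array probe to a gene symbol. This gave 11 of 41174 probes for 9 of the 10 genes. No probe was matched to Gstk1, which was not analysed here. All 9 matched genes passed the filter on dim probes and lie among the 25193 features tested. The list was chosen by results on these same arrays, without a record of which comparison chose which gene, so all the values of the 9 genes that follow are a description and none is independent support for another.

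The study asked how muscle transcripts respond to a glucocorticoid and how far the response depends on Klf15, a zinc-finger transcription factor of the Krüppel-like family. Total RNA came from quadriceps of wild-type (WT) mice and of mice labelled KLF15_KO (KO). Each animal received 1 intraperitoneal injection, either dexamethasone, a synthetic glucocorticoid, at 2 mg/kg or the same volume of vehicle, and muscle was taken 8 h later. The 4 groups, WT with vehicle, KO with vehicle, WT with dexamethasone and KO with dexamethasone, hold 4 animals each, with 1 one-colour array per animal. How the KO allele was made, where it is deleted and which strain, sex and age the mice had was not given in the sources used here.

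Glutathione S-transferases join the thiol of glutathione to electrophilic compounds, among them drugs and the aldehydes that arise when lipids are oxidised. The cytosolic enzymes are grouped into classes by sequence. In mice the mu-class genes (Gstm) lie side by side on chromosome 3 and the theta-class genes (Gstt) on chromosome 10. Gstp1 is a pi-class and Gsta4 an alpha-class enzyme, the latter known for its activity on the lipid aldehyde 4-hydroxynonenal. Gstm2 is a mu-class enzyme long known from muscle, where other mu-class genes were measured here too.

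Signal is given as log2 of the processed intensity minus the array's own 75th percentile, so that 0 is the 75th percentile itself and a difference of 1 is a doubling of signal. Probes differ in how strongly they bind, and no level is compared between genes. The 75th percentile of intensity ran from 537 to 1133 over the 16 arrays, the share of spots well above background from 66.3% to 80.6%, and arrays of the same group correlated at 0.933 to 0.990 across features. Markers of skeletal muscle were bright on every array, with a summed level of the 8 measured genes from 2071 to 3571 times the 75th percentile. With both of its probes the 8 KO arrays all gave less Klf15 signal than the lowest of the 8 WT arrays. The neutrophil markers stood far above all other arrays on 2 dexamethasone arrays, replicate 3 of WT and replicate 1 of KO (summed levels up to 236 in WT and 94.2 in KO, against at most 0.469 in either vehicle group). Arrays lay on 8 slides of 1 to 3 arrays. Replicate 3 of WT with dexamethasone was alone on its slide, had the lowest 75th percentile (537) and was the only array scanned on the second of 2 days. It also had the highest summed fast-fibre markers (5339, against at most 3859 on the others). Both arrays with raised neutrophil markers had the highest summed erythroid markers as well (786 in WT and 527 in KO, against at most 392 elsewhere). For replicate 3 of WT with dexamethasone the scan day, the slide and the raised markers cannot be told apart.

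The promoters of the genes that differed, and of Gstm5, a neighbour of the same class that did not, are shown first, because genes of 1 class that move together invite a look at the sequence beside their start sites. Each line gives the 250 bases before a RefSeq start site (build GRCm38.p6), read 5′ to 3′ on the gene's strand, with capitals marking CACCC or its reverse complement GGGTG, the core of the elements that Krüppel-like factors bind. The arrays do not tell which start site is used. Gstm1 has 2 that lie close together, and both are shown. Gstm7 and Gstt3 also have a second start site, and only the first is shown.
Gstm1, first start site, chr3:108017974-108018223, minus strand: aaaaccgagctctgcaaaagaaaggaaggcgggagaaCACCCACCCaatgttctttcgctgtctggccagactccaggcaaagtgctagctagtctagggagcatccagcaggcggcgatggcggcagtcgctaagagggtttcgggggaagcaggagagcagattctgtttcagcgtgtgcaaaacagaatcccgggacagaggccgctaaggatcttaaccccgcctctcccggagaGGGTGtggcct
Gstm1, second start site, chr3:108017819-108018068, minus strand: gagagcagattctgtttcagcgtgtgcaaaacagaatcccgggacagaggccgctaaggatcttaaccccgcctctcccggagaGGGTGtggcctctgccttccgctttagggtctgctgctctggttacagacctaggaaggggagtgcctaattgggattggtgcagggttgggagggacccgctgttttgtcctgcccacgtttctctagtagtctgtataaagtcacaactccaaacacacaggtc
Gstm2, chr3:107986421-107986670, minus strand: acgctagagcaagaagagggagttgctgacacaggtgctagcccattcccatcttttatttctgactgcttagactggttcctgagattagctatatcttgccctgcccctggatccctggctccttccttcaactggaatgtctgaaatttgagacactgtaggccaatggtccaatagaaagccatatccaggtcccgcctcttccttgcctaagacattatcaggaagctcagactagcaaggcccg
Gstm3, chr3:107969175-107969424, minus strand: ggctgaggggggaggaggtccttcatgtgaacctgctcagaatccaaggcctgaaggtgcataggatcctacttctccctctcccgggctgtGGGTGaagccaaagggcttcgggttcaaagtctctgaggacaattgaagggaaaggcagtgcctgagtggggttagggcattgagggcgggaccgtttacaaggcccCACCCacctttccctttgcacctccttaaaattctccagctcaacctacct
Gstm7, first start site, chr3:107931818-107932067, minus strand: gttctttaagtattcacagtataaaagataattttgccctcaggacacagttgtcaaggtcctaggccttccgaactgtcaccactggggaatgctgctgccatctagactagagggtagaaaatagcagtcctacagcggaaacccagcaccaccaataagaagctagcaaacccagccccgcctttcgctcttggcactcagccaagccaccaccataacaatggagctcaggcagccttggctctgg
Gstm5, chr3:107895604-107895853, plus strand: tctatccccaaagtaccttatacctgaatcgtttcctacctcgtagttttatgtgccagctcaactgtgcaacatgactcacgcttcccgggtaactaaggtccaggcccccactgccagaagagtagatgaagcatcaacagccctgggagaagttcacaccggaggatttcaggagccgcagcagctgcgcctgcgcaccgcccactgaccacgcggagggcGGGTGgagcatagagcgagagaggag
Gstt1, chr10:75797732-75797981, minus strand: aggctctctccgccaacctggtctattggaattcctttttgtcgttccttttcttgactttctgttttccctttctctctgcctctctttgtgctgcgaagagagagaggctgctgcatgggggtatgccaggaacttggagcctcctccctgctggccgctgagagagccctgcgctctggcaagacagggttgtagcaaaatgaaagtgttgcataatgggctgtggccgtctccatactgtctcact
Gstt3, first start site, chr10:75781423-75781672, minus strand: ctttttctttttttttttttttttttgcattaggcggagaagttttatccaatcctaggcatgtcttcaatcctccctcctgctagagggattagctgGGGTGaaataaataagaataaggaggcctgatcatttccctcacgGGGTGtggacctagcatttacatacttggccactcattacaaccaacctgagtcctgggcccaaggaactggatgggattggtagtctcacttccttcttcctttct

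CACCC was found on either strand in 52.0% of all 32851 promoter windows of the same length, so a match is common. The first window of Gstm1 holds 3 matches, at 213, 209 and 11 bases before the start, a number reached by 6.92% of all windows. Its second window holds 1. Gstm3 and Gstt3 hold 2 each, a number reached by 21.1% of all windows, and Gstm5 holds 1. The windows of Gstm2 and Gstt1, and the first window of Gstm7, hold none. The second Gstm7 window, not shown, holds 1, at 6 bases before the start, and the second Gstt3 window, not shown, holds 2. The half-site of the glucocorticoid receptor, AGAACA, was found in the first Gstm1 window 2 times (217 and 202 bases before the start, the first of them overlapping a CACCC match) and in no other window shown, against 16.1% of all windows with at least 1 match. TGACNNNGC, the core of the antioxidant response element that NRF2 binds, was found in the window of Gstm5 (42 bases before the start) and in the second window of Gstm7, against 10.2% of all windows. The genes that were lower in KO muscle thus share none of the 3 motifs in the windows shown, and a match or its absence here says nothing on binding.

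In KO muscle 2 mu-class genes, Gstm2 and Gstm3, passed the threshold as lower than in WT under vehicle, and 4, these and Gstm1 and Gstm7, under dexamethasone. Gstm2 differed most under vehicle and had the smallest p in both treatments, with WT levels 3.82-fold those of KO in vehicle-treated mice and 5.49-fold after dexamethasone. Gstm3 was 1.74-fold and 1.82-fold lower. For Gstm1 the ratio was 1.72-fold under vehicle, which did not pass (adjusted p = 0.0641), and 1.79-fold under dexamethasone. Gstm7 gave 2.81-fold under vehicle, which did not pass either (adjusted p = 0.175), and 6.76-fold under dexamethasone, where 1 of 4 KO arrays was well above background and normexp background correction reduced the log2 change from -2.76 to -1.22 (adjusted p = 0.696). For these 4 genes every KO array lay below every WT array, over both treatments together. Among all features 0.518% showed that pattern. Gstm5, Gsta4 and Gstp1 passed the threshold in no comparison. The estimate was below 0 for each of the 9 genes in each KO comparison, but with arrays centred on their median Gstm5, Gstt1, Gstt3 and Gsta4 lay at or just above 0 under vehicle, and with normexp Gstm5 lay above 0 in both treatments and Gstp1 under dexamethasone. The medians over the 9 genes were -0.26 under vehicle and -0.47 under dexamethasone, beside -0.08 and 0.05 over all features.

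**Figure D1:**
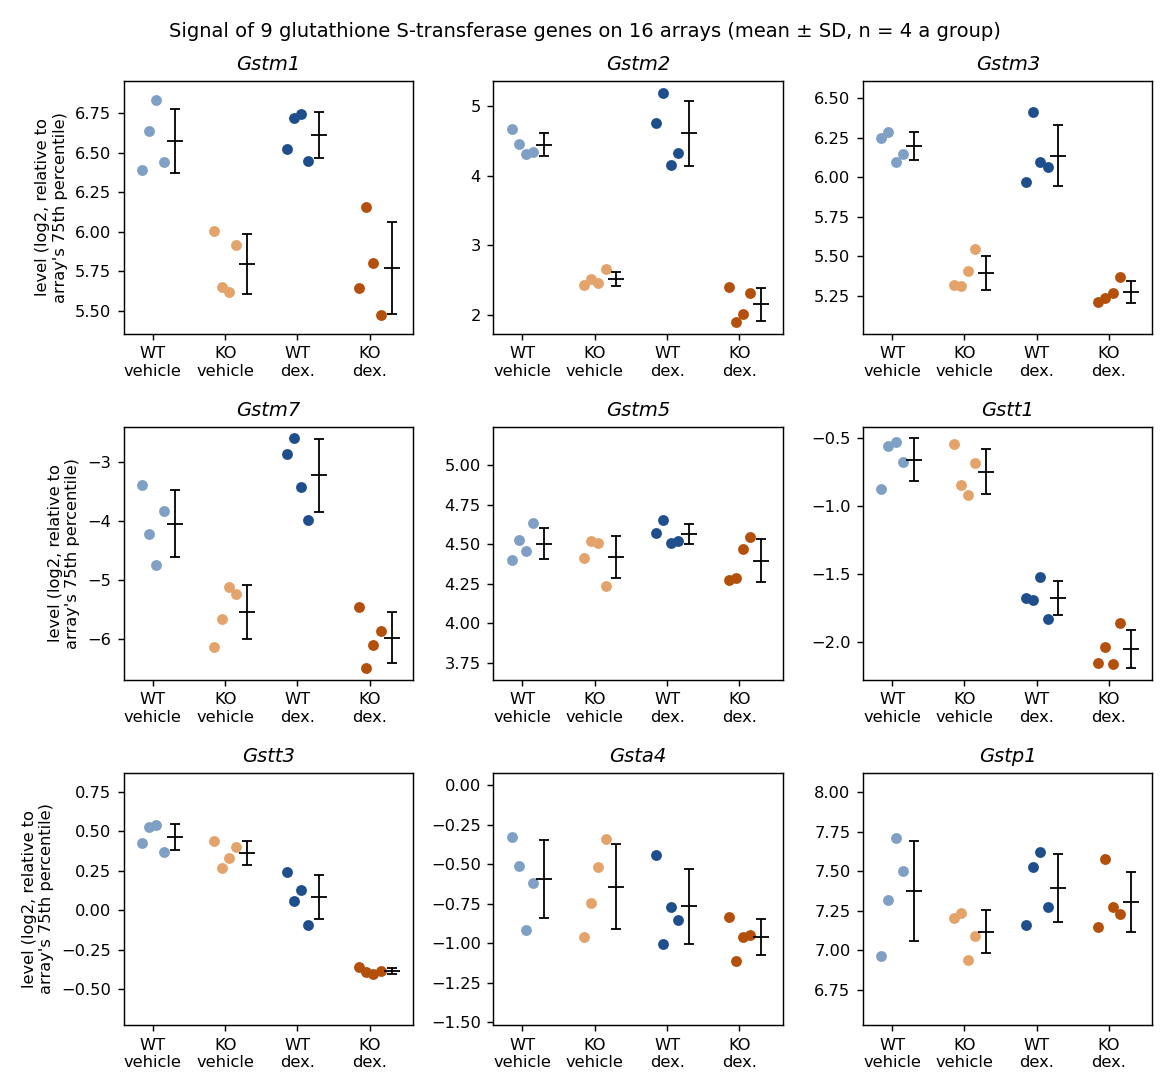
Signal of the 9 genes on each of the 16 arrays (y axis, log2 of intensity relative to the array's 75th percentile, a separate scale in each panel) in the 4 groups, with the mean and SD of each group (n = 4) as a bar. Gstm1, Gstm2, Gstm3 and Gstm7 separate by genotype, Gstt1 and Gstt3 by dexamethasone.

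The fit over all features, limma with Benjamini-Hochberg adjustment and a threshold of 0.05, placed 2 of the 9 genes among the lower features in KO under vehicle (Gstm2 and Gstm3), where 0.234% of all features were lower and 0.0238% higher. Under dexamethasone it placed 5 there (Gstm1, Gstm2, Gstm3, Gstm7 and Gstt3), beside 0.873% lower and 0.957% higher of all features. Averaged over treatments the same 5 genes were called, beside 0.969% lower and 0.369% higher. None of the 9 was called higher. KO arrays below all WT arrays of the same treatment were seen for 4 of 9 genes under vehicle (3.96% of all features) and for 6 of 9 under dexamethasone (4.03%), the 2 additional ones being Gstt1 and Gstt3.

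Gstm2, a mu-class enzyme known from muscle, read 4.67, 4.46, 4.31 and 4.34 on the 4 WT arrays with vehicle and 2.43, 2.52, 2.46 and 2.65 on the KO arrays with vehicle. After dexamethasone the WT arrays read 4.76, 5.20, 4.15 and 4.32 and the KO arrays 2.40, 1.89, 2.01 and 2.31. The lowest WT array, at 4.15, thus lay well above the highest KO array, at 2.65. The log2 change in KO was -1.93 (SE 0.20, adjusted p = 0.000215) under vehicle and -2.46 (SE 0.20, adjusted p = 1.28e-05) under dexamethasone. In the order of the group means the WT groups stood together at 4.61 ± 0.47 (dexamethasone) and 4.45 ± 0.16 (vehicle), followed by KO with vehicle at 2.51 ± 0.10 and KO with dexamethasone at 2.15 ± 0.24 (SD, n = 4 each). The arrays of the 2 WT groups overlapped. Those of the 2 KO groups did not, but their difference of -0.36 (SE 0.20, adjusted p = 0.336) passed no threshold.

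Gstm3 read 6.25, 6.29, 6.10 and 6.15 in WT and 5.32, 5.31, 5.40 and 5.55 in KO under vehicle. Under dexamethasone it read 5.97, 6.42, 6.10 and 6.06 in WT and 5.21, 5.23, 5.27 and 5.37 in KO. Genotype separated the arrays in both treatments, and neither genotype's vehicle and dexamethasone groups stood apart. The change in KO was -0.80 (SE 0.10, adjusted p = 0.00161) and -0.87 (SE 0.10, adjusted p = 0.000331).

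Gstm1, a mu-class enzyme abundant in liver, had 2 probes. The brighter read 6.39, 6.64, 6.83 and 6.44 in WT and 6.0, 5.65, 5.62 and 5.92 in KO under vehicle. Under dexamethasone it read 6.53, 6.72, 6.75 and 6.45 in WT and 5.64, 6.16, 5.80 and 5.48 in KO. Its change in KO was -0.78 (SE 0.15, adjusted p = 0.0641) under vehicle, which missed the threshold, and -0.84 (SE 0.15, adjusted p = 0.0114) under dexamethasone. The dimmer probe gave -0.49 (SE 0.16, adjusted p = 0.373) and -1.22 (SE 0.16, adjusted p = 0.00104). Both probes were lower in KO, and under vehicle the groups of the dimmer probe overlapped, with KO arrays from 3.34 to 4.01 and WT arrays from 3.92 to 4.24.

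Gstm7, a mu-class gene less studied than its neighbours, gave a dim signal. In WT it read -3.40, -4.22, -4.74 and -3.83 under vehicle and -2.87, -2.60, -3.43 and -3.99 under dexamethasone. In KO it read -6.13, -5.65, -5.12 and -5.24 under vehicle and -5.46, -6.49, -6.10 and -5.86 under dexamethasone. All 8 WT arrays were well above background, against 3 of 4 KO arrays under vehicle and 1 of 4 under dexamethasone. The change in KO was -1.49 (SE 0.35, adjusted p = 0.175) under vehicle and -2.76 (SE 0.35, adjusted p = 0.000839) under dexamethasone. Where the KO signal was not above background its true level is not known and may lie lower or higher. The change under dexamethasone was smaller with normexp background correction, as given above. With the requirement that a probe be above background on all 16 arrays the gene was not tested.

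Gstm5 is the mu-class gene at the far end of the cluster. Its 4 groups lay close together, at 4.51 ± 0.10 (WT vehicle), 4.42 ± 0.13 (KO vehicle), 4.56 ± 0.06 (WT dexamethasone) and 4.40 ± 0.14 (KO dexamethasone, SD, n = 4 each). The 95% interval of the KO change was -0.29 to 0.11 under vehicle and -0.37 to 0.03 under dexamethasone. Both intervals leave out a change of the size seen for Gstm1 or Gstm3.

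**Figure D2:**
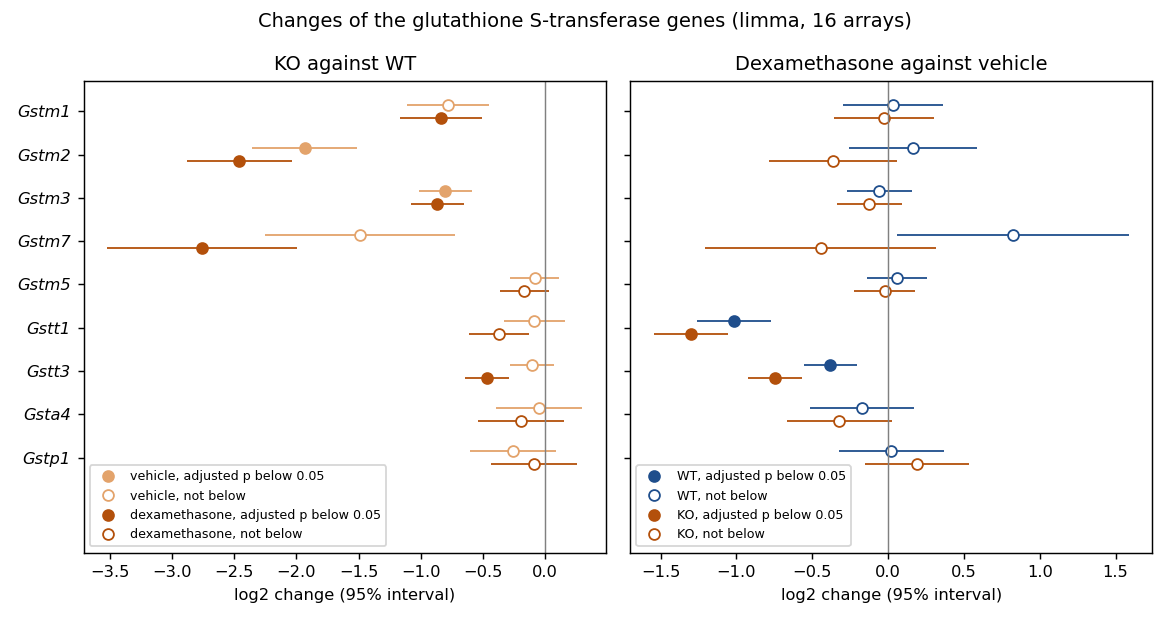
Log2 change of each gene (points) with its 95% interval (bars) for KO against WT in each treatment (left) and for dexamethasone against vehicle in each genotype (right). Filled points passed an adjusted p of 0.05, such as Gstm2 at -1.93 and -2.46 on the left and Gstt1 at -1.02 and -1.30 on the right.

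Calls moved both ways with the model of slides, and several were lost with another background correction. With arrays centred on their median the Gstm3 call under vehicle was lost, and Gstm2 alone of the 9 genes stayed called there. With normexp Gstm2 was the only one of the 9 genes called in a KO comparison, under dexamethasone (-2.16, adjusted p = 0.00612) and averaged over treatments (-1.95, adjusted p = 0.000570). With slide as a random block 4 of the 9 genes were called under vehicle, Gstm1 (-0.76, adjusted p = 0.00181) and Gstm7 (-1.38, adjusted p = 0.00982) being added. Gstm1 under vehicle was also called with quantile normalization, with probes above background on all 16 arrays and without KO dexamethasone replicate 2 (adjusted p from 0.0280 to 0.0482). With slide as a fixed block, which drops the arrays that were alone on a slide (replicates 1 and 3 of WT with dexamethasone, replicate 2 of KO with vehicle), Gstm2 stayed the only gene of the 9 called in each treatment (-1.91 and -2.67), Gstm3 changed by -0.76 (adjusted p = 0.119) and -0.97 (adjusted p = 0.0740), and Gstm7 by -2.51 (adjusted p = 0.0578) under dexamethasone. Between arrays of the same slide, KO minus WT under vehicle was -1.81, -2.22 and -1.88 for Gstm2, -0.74, -0.85 and -0.78 for Gstm3, -0.72, -0.77 and -0.83 for Gstm1 and -1.02, -1.72 and -1.39 for Gstm7 on the 3 slides that held both groups. The 1 slide with both genotypes under dexamethasone gave -2.32, -0.80, -0.64 and -2.11 for the same genes. Without the 2 arrays with raised neutrophil markers the Gstm1 change under dexamethasone was -0.75 (adjusted p = 0.106), and Gstm2, Gstm3 and Gstm7 stayed called.

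**Figure D3:**
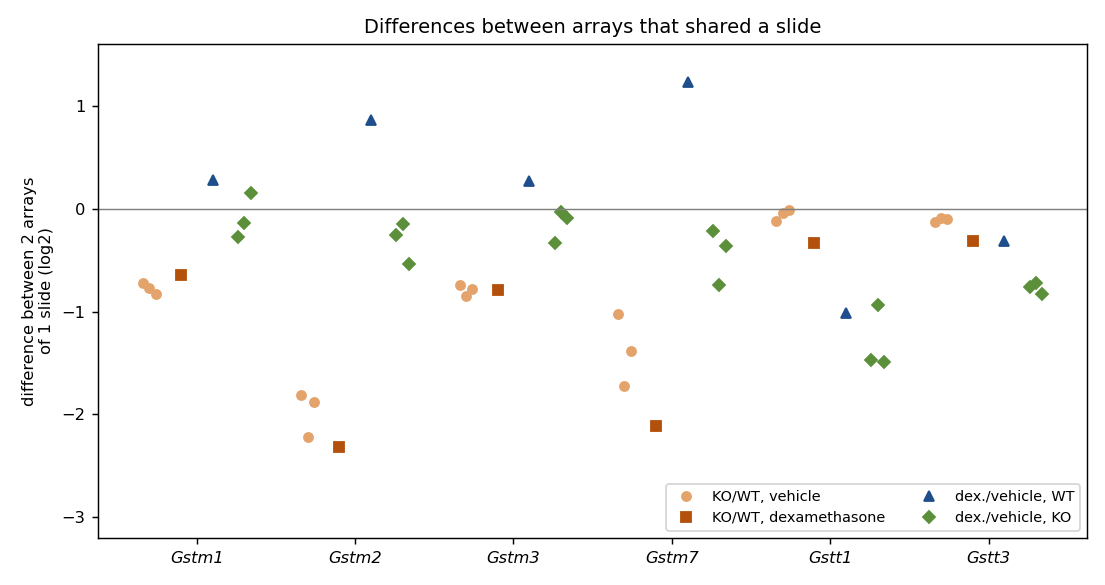
Differences in log2 signal between 2 arrays of the same slide (each point is 1 slide) for 6 genes and 4 comparisons. For Gstm1, Gstm2, Gstm3 and Gstm7 all 4 slides that held both genotypes gave KO below WT, and for Gstt1 and Gstt3 all 4 slides that held both treatments gave dexamethasone below vehicle.

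Of the cell-type marker lists, no gene of any list passed in a KO comparison. Adipocyte markers were estimated higher in KO for 7 of 7 genes, with a median of 0.24 under vehicle and 0.75 under dexamethasone, and summed levels of 163 to 245 (WT vehicle), 188 to 417 (KO vehicle), 136 to 331 (WT dexamethasone) and 178 to 385 (KO dexamethasone). Neutrophil markers were estimated lower in KO for 7 of 7 genes under dexamethasone (median -1.15), where summed levels ran from 0.111 to 236 in WT and from 0.0807 to 94.2 in KO, and for 4 of 7 under vehicle. Under vehicle macrophage markers were estimated lower for 8 of 8 genes (median -0.33, summed levels 11.1 to 16.4 in WT and 9.61 to 12.8 in KO) and fibroblast markers for 6 of 6 (median -0.19, 351 to 431 in WT and 285 to 398 in KO). Under dexamethasone these 2 lists were estimated higher, for 8 of 8 and 5 of 6 genes. Endothelial markers were estimated higher for 7 of 7 genes under vehicle (median 0.25) and lower for 5 of 7 under dexamethasone (median -0.03). Erythroid markers were estimated lower for 5 of 5 genes under vehicle (median -0.19) and for 4 of 5 under dexamethasone (median -0.45). Slow-fibre genes were estimated higher for 7 of 8 under vehicle (median 0.93) and lower for 8 of 8 under dexamethasone (median -0.18). The part of these cells or fibres in the lower transferase signal was not tested, and in whole muscle fewer cells of a type cannot be told apart from less RNA per cell.

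Gstt1 and Gstt3, both of the theta class, fell with dexamethasone in both genotypes. Gstt1 fell 2.02-fold in WT and 2.46-fold in KO muscle, and Gstt3 fell 1.30-fold and 1.68-fold. Both genes lay lower on every dexamethasone array than on any vehicle array of their genotype, a pattern that 9.24% of all features showed in WT and 7.11% in KO. They were the only ones of the 9 genes called, in WT (5.66% of all features lower, 5.09% higher) and in KO (4.72% lower, 5.31% higher). None of the 5 mu-class genes was called with dexamethasone. The comparison of genotypes under dexamethasone and that of treatments in KO share the 4 KO dexamethasone arrays.

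Gstt1, which acts on small halogenated compounds, read -0.88, -0.56, -0.53 and -0.67 in WT with vehicle and -1.67, -1.69, -1.52 and -1.83 in WT with dexamethasone. In KO it read -0.54, -0.85, -0.92 and -0.68 with vehicle and -2.15, -2.03, -2.16 and -1.86 with dexamethasone. The 2 vehicle groups overlapped, and each lay above both dexamethasone groups. The change was -1.02 (SE 0.11, adjusted p = 0.000102) in WT and -1.30 (SE 0.11, adjusted p = 1.00e-05) in KO. KO lay below WT on every array under dexamethasone, but the change of -0.37 (SE 0.11, adjusted p = 0.136) did not pass.

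Gstt3, its theta-class neighbour, read 0.43, 0.53, 0.54 and 0.37 in WT with vehicle and 0.44, 0.27, 0.33 and 0.40 in KO with vehicle. With dexamethasone the WT arrays read 0.24, 0.05, 0.13 and -0.09 and the KO arrays -0.36, -0.39, -0.41 and -0.39. The order was WT vehicle, KO vehicle, WT dexamethasone, KO dexamethasone, and of the neighbours in it the vehicle groups overlapped. The change was -0.38 (SE 0.08, adjusted p = 0.00871) in WT and -0.75 (SE 0.08, adjusted p = 6.56e-05) in KO. Under dexamethasone KO was below WT by 0.47 on the log2 scale (SE 0.08, adjusted p = 0.00829), which is 1.38-fold. That call was lost without the 2 arrays with raised neutrophil markers (-0.46, adjusted p = 0.0625), and the call averaged over treatments (-0.29, adjusted p = 0.0237) was lost when any of 7 single arrays was left out (WT vehicle 2 or 3, KO vehicle 2 or 3, WT dexamethasone 3, KO dexamethasone 3 or 4).

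Scaling and background correction bear on the dexamethasone comparison in WT. The median change over all features was -0.07 when arrays were aligned at the 75th percentile and 0.17 when aligned at their median, and the share of calls that were higher moved from 47.4% to 82.8%. With normexp the WT changes were -0.57 for Gstt1 (adjusted p = 0.722) and -0.27 for Gstt3 (adjusted p = 0.863), and in KO Gstt3 stayed called (-0.70, adjusted p = 0.0153) and Gstt1 did not (-0.97, adjusted p = 0.0877). With the median Gstt1 changed by -0.77 (adjusted p = 0.00605) and Gstt3 by -0.14 (adjusted p = 0.482), against that median of 0.17. With slide as a fixed block Gstt3 changed by -0.42 (adjusted p = 0.0785) in WT. The WT call of Gstt3 was lost in 4 of the 28 other settings, among them normexp, median centring and the fixed slide block. Within slides, dexamethasone minus vehicle was -1.01 in WT and -1.47, -0.94 and -1.49 in KO for Gstt1, and -0.31 in WT and -0.76, -0.72 and -0.83 in KO for Gstt3. Without the 2 arrays with raised neutrophil markers, Gstt1 changed by -1.07 and -1.27 and Gstt3 by -0.40 and -0.75 in WT and KO, and all 4 changes stayed called.

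Neutrophil markers did not pass with dexamethasone in either genotype (0 of 7, median 2.43 in WT and 1.05 in KO). Macrophage markers were estimated lower in WT for 8 of 8 genes and called for 4 (summed level 11.1 to 16.4 with vehicle, 7.27 to 9.90 with dexamethasone). Endothelial markers were called lower in KO for 4 of 7 (26.1 to 31.9 with vehicle, 21.5 to 26.9 with dexamethasone). Among all features 5.66% were lower and 5.09% higher in WT, and 4.72% lower and 5.31% higher in KO. Slow-fibre genes were estimated higher for 8 of 8 in each genotype (median 1.46 in WT and 0.48 in KO), and none passed. Elsewhere among the marker lists 1 fibroblast gene was lower and 1 adipocyte gene higher in each genotype, and 1 smooth muscle and 1 liver gene were higher in WT. Their part in the theta-class change was not tested.

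No gene's response to dexamethasone differed between genotypes past the threshold, among the 9 or among all features (0% of 25193, with limma). Without adjustment 2867 features had p below 0.05, among them Gstm7 (-1.27, SE 0.50, adjusted p = 0.383) and Gstt3 (-0.36, SE 0.12, adjusted p = 0.270). Other settings of the same tool called between 0 and 321 features and none of the 9. The responses in WT and KO are therefore given side by side and not as a difference: 0.82 and -0.44 for Gstm7, 0.16 and -0.36 for Gstm2, 0.03 and -0.03 for Gstm1, and -0.06 and -0.12 for Gstm3. The Gstm1 values are those of its brighter probe. In limma with every probe as a feature, its dimmer probe gave 0.25 in WT (adjusted p = 0.358) and -0.48 in KO (adjusted p = 0.0822). The interaction of the dimmer probe was -0.73 (SE 0.23, adjusted p = 0.210). The 2 Gstm1 probes thus gave unlike estimates of this response, and neither was called. Gstm7 in WT was called in 2 of the 27 other settings that tested it, 1 of them the deposited log2 values (0.69, adjusted p = 0.0340).

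Gsta4 and Gstp1 passed the threshold in no comparison. Gsta4 ranged from -1.11 to -0.33 over all 16 arrays, with group means of -0.60 ± 0.25 (WT vehicle), -0.64 ± 0.27 (KO vehicle), -0.77 ± 0.24 (WT dexamethasone) and -0.96 ± 0.11 (KO dexamethasone, SD, n = 4 each). Its largest estimate was -0.32 (95% interval -0.67 to 0.02) with dexamethasone in KO, where the 3 slides that held both treatments gave -0.49, -0.43 and -0.15. With slide as a random block that change was called (-0.33, adjusted p = 0.0420). Gstp1 had 2 probes. The brighter ranged from 6.94 to 7.71 and the dimmer from 4.94 to 5.55, and their estimates for KO under vehicle were -0.26 and 0.05, for KO under dexamethasone -0.09 and -0.27, with neither called in any comparison. The 95% interval of the brighter probe was -0.60 to 0.09 under vehicle and -0.43 to 0.25 under dexamethasone.

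Position in the genome and the pattern over groups can be set side by side, an added description chosen after the values were seen. In RefSeq's order of protein-coding genes the mu cluster runs Gstm5, Gstm7, Gstm6, Gstm3, Gstm2, Gstm1, Gstm4. The genes lower in KO are thus consecutive except for Gstm6, and Gstm5 and Gstm4 border them. Gstm6 was dim and variable, with a KO change of 0.18 (SE 0.63) under vehicle and -0.02 (SE 0.63) under dexamethasone, so that a change like that of Gstm3 lies within its interval. Gstm4 changed by 0.05 (SE 0.19) and -0.39 (SE 0.19, adjusted p = 0.380). Of the 10 genes flanking the cluster, 5 on each side, 8 were tested. None was called in a KO comparison, with the lowest adjusted p at 0.148. Among all features 0.234% were lower under vehicle and 0.873% under dexamethasone, so no call among 8 is near that share. With dexamethasone in WT, Ampd2 (-1.14) and Csf1 (-0.65) were called lower and Ahcyl1 (0.51) higher, beside 5.66% lower and 5.09% higher of all features. In KO only Ahcyl1 was called, higher (0.36).

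**Figure D4:**
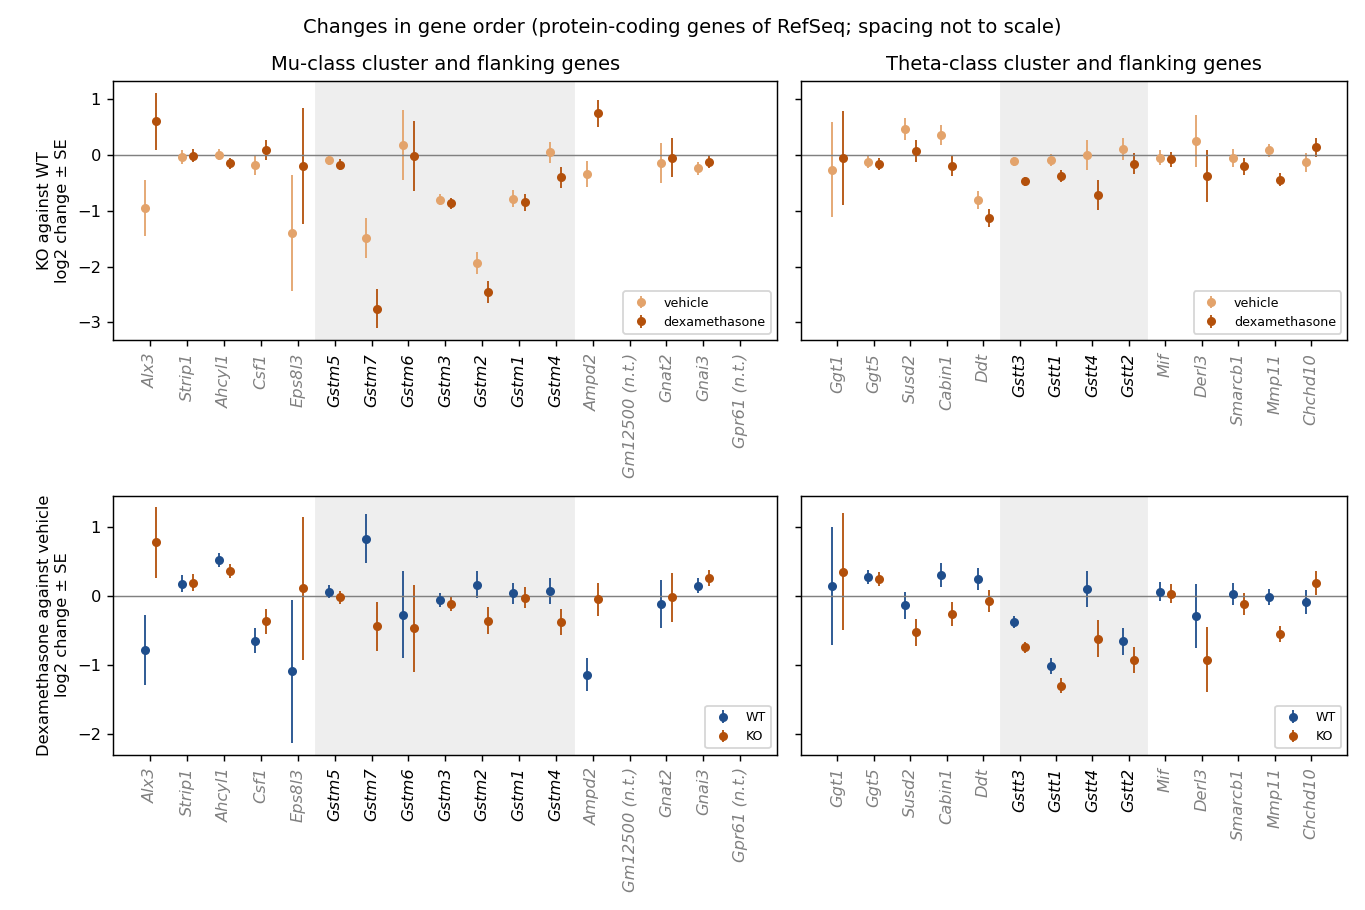
Log2 change (points) with SE (bars) for the genes of the mu and theta clusters (shaded) and 5 flanking protein-coding genes on each side, in gene order and not to scale, for KO against WT (top) and dexamethasone against vehicle (bottom); n.t. marks a gene that was not tested. The KO change reaches -2.76 at Gstm7 and -2.46 at Gstm2 and is near 0 at Gstm5, and Gstt3, Gstt1 and Gstt2 lie below 0 with dexamethasone.

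The theta cluster runs Gstt3, Gstt1, Gstt4, Gstt2. Gstt2 fell with dexamethasone, by 0.66 on the log2 scale in WT (SE 0.19, adjusted p = 0.0400) and 0.93 in KO (SE 0.19, adjusted p = 0.00634), and the WT call was lost when any 1 of 10 of the 16 arrays was left out. Gstt4, which lies between Gstt1 and Gstt2, was well above background on 4 of 16 arrays and was not called, at 0.10 in WT (adjusted p = 0.860) and -0.62 in KO (adjusted p = 0.188). Mif, on the other side of Gstt2, changed by 0.06 and 0.03. Ddt, the D-dopachrome tautomerase gene next to Gstt3, showed the other pattern: it was lower in KO by 0.81 (SE 0.16, adjusted p = 0.0678) under vehicle and called at -1.12 (SE 0.16, adjusted p = 0.00207) under dexamethasone, and changed by 0.24 and -0.08 with dexamethasone in WT and KO. Of the other 9 flanking genes, 1 was called in these comparisons, Mmp11 with dexamethasone in KO (-0.55, adjusted p = 0.00813), where 4.72% of all features were lower. Probe sequences were not used here, and signal shared between close copies of a class was not tested. Gstm5 lay in the same class and did not follow, and both Gstm1 probes were estimated lower in KO. Without probe sequences these observations do not test for shared signal.

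Over the 16 arrays Gstm2 followed Gstm3 (r = 0.972) and Gstm7 (r = 0.944), and Gstt1 followed Gstt3 (r = 0.932), while Gstm2 and Gstt1 correlated at 0.230. These correlations describe the group differences above, since all points share them. After subtraction of group means they were 0.588, 0.746, 0.570 and -0.163, and Gstm1 and Gstm2, at 0.859 over all arrays, were at -0.277. Among all genes with a symbol the pattern most like that of Gstm2 was Bckdhb (r = 0.988), which encodes a subunit of the branched-chain ketoacid dehydrogenase, and Bckdhb was also the most like Gstm3 (0.975). Gstm1 was most like Gcat (0.945), Gstm7 like Bdnf (0.959), Gstm5 like Hook1 (0.891), Gstt1 like C1qtnf2 (0.979), Gstt3 like Pwwp3a (0.937), Gsta4 like Aqp4 (0.871) and Gstp1 like Tmem38a (0.942). Each is the highest of many correlations over 16 arrays and is given as a description.

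Of 19 other glutathione transferase genes 16 had a probe and 15 were tested. None passed in a KO comparison. Among all features 0.234% were lower and 0.0238% higher under vehicle, and 0.873% lower and 0.957% higher under dexamethasone. No call among 15 genes is thus near that share. The gene nearest to the threshold was Gstz1, the zeta-class enzyme of tyrosine breakdown, at -0.49 under dexamethasone (SE 0.12, adjusted p = 0.0588). All its KO arrays (1.74 to 2.10) lay below all WT arrays (2.30 to 2.67), a pattern that 4.03% of all features showed. Gstz1 passed there in 5 other settings, with adjusted p from 0.0361 to 0.0458: the deposited values, probes above background on all 16 arrays, every probe as a feature, the random slide block, and without WT vehicle replicate 3. Since the 10 genes were chosen with results known, the contrast between them and these others is partly built in. With dexamethasone Gstt2 and Hpgds, the haematopoietic prostaglandin D synthase (-1.08, SE 0.26, adjusted p = 0.0171), fell in WT. Hpgds was well above background on 1 of 4 WT arrays with dexamethasone, its change was 0.10 with normexp and -0.17 with the deposited values, and its call was lost without WT vehicle replicate 1 or 2 (adjusted p = 0.0529 and 0.0629). In KO Gstt2 and Gsta1 fell, the latter by 1.47 on the log2 scale (SE 0.44, adjusted p = 0.0488). The Gsta1 call was lost when any 1 of 14 of the 16 arrays was left out. In each genotype 2 of the 15 genes were thus called lower, beside 5.66% of all features in WT and 4.72% in KO.

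Of the genes that supply and recycle glutathione 1 was called in KO. Among all features 0.234% were lower and 0.0238% higher under vehicle, and 0.873% lower and 0.957% higher under dexamethasone. A list of this size without a call is thus near that share. Of 21 tested genes of glutathione synthesis, salvage and transport 1 was lower in KO, Cth, the cystathionine gamma-lyase that makes cysteine. It changed by -3.69 (SE 0.21, adjusted p = 9.80e-07) under vehicle and -5.58 (SE 0.21, adjusted p = 6.60e-09) under dexamethasone. Gclc, which encodes the catalytic subunit of the rate-limiting enzyme of glutathione synthesis, changed by 0.04 (SE 0.12) and 0.11 (SE 0.12). Of 17 genes of glutathione use and recycling none was called in KO under either treatment. Of 29 NRF2-related and other antioxidant genes none was called under vehicle, and under dexamethasone Bach1, a repressor of NRF2 target genes, was higher (0.79, SE 0.17, adjusted p = 0.0302) and Nqo1, a quinone reductase and NRF2 target, was lower (-0.80, SE 0.18, adjusted p = 0.0436). The medians of the 3 lists under dexamethasone were -0.05, -0.01 and -0.11, beside 0.05 for all features.

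With dexamethasone in WT, Cth rose (1.53, SE 0.21), as did the dipeptidase gene Dpep1 (0.68) and the amino acid transporter chain gene Slc3a2 (0.70), and the aminopeptidase gene Anpep fell (-1.20), which makes 3 higher and 1 lower of 21, where 5.09% of all features were higher and 5.66% lower. The 1 lower of 21 is near that share. In KO, where 5.31% of all features were higher and 4.72% lower, 3 were higher and 2 lower, namely Dpep1 (1.24), Chac2 (0.58) and Abcc4 (0.39) against Anpep (-1.03) and Gss (-0.32). Idh1, a source of NADPH, was the 1 gene called of the 17 for use and recycling, at 0.97 in WT and 0.61 in KO. That 1 of 17 is near the share of all features called higher. Of the 29 antioxidant genes 3 rose and 1 fell in WT, with Mafk (0.87), Aldh1a1 (0.71), Nfe2l2, which encodes NRF2 (0.68), and Sod3 (-0.81). In KO 3 rose and 2 fell, with Sod3 (-0.99), Aldh1a1 (0.62), Bach1 (0.60) and Nfe2l2 (0.49) as the largest. The 1 lower of 29 in WT and 2 lower of 29 in KO are near the shares of all features called lower.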

How the data were processed

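Quadriceps RNA of 16 mice in 4 groups was amplified as cDNA, labelled with Cy3 and hybridised to one-colour Agilent arrays, per the labels' protocols. The authors deposited each array's scanner output, whose processed signal is an intensity made with Feature Extraction 10.7.3.1, per the file headers, and a table of log2 values deposited for the same arrays, whose order of probes was that of the median signal in the scanner files. The values used here are log2 of the processed intensity minus the array's 75th percentile. Outlier spots were dropped, spots of a probe averaged, and probes kept if 4 or more of the 16 arrays had them well above background. The brightest probe stood for a gene, leaving 25193 features. Probes were named through RefSeq accessions, by which 24844 of 26382 matched.

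Group means were fitted with limma 3.58.1 in R 4.3.3, with two-sided tests and Benjamini-Hochberg adjustment over all features at 0.05. The fit was tested on simulated data. All listed genes were described. Other genes named were Klf15, other glutathione transferases, genes called in their list, the most correlated gene for each member, and the cluster neighbours. Gclc was named outside this rule and was not called. Members and lists were chosen with earlier results of these data known. The labels do not say that replicate numbers pair the animals, and the main fit did not use them. The number of arrays limits the precision. In all, 28 other settings were tried.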

Additional observations from a re-analysis of the deposited data

How the results depend on the processing

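Counts of features called, and of the 9 genes among them, moved with the processing. For KO against WT under vehicle, 65 features and 2 genes were called. The counts were 38 and 1 with median centring, 15 and 0 with normexp, 21 and 1 with slide as a fixed block, and 433 and 4 with slide as a random block. Leaving out 1 array gave 44 to 70 and 2 to 3. Under dexamethasone (461 and 5), median centring called 216 features, every probe as a feature 904, the random slide block 956 and the replicate block 290. Normexp called 51 and 1, the fixed slide block 45 and 1, and leaving out both arrays with raised neutrophil markers 232 and 3. Leaving out 1 array gave 285 to 480 and 5 throughout, with a change of over 1.5 times without KO dexamethasone replicate 2 or 3. Averaged over treatments (337 and 5), the counts of features were 167 with median centring, 525 with every probe, 983 with the random slide block, 200 with the replicate block and 210 without both neutrophil-marker arrays. Normexp gave 61 and 1 and the fixed slide block 71 and 3, and leaving out 1 array gave 234 to 345 and 4 to 5.

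For dexamethasone in WT (2709 and 2), normexp gave 165 and 0, the fixed slide block 770 and 1, and median centring 1 gene. Leaving out 1 array gave 1627 to 2664 features, the lowest without WT vehicle replicate 2, and 2 genes throughout. In KO (2528 and 2), median centring gave 1419 features, the random slide block 5029, and normexp 373 and 1. Leaving out 1 array gave 1809 to 2657 and 2 genes. The interaction (0 and 0) reached 1 feature with the deposited values, 6 with probes above background on all arrays, 321 with the random slide block, and 0 to 3 with 1 array left out. Hpgds with dexamethasone in WT reversed with normexp, to 0.10. The replicate block changed 1 call among the 9 genes, Gstt3 averaged over treatments (adjusted p = 0.0724). The causes of these differences were not tested. The share of calls that were higher moved with median centring from 52.3% to 10.2% for KO under dexamethasone and from 27.6% to 12.6% averaged over treatments. Normexp used the median spot signal, since the files used here have no mean signal. Gstm7 lay near background, where changes are least precise.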
